A study of Mus musculus with 20 samples.

Results

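Collagen genes were defined as the protein-coding genes of the deposited table whose symbol has the form of a collagen chain (Col, a type number, the letter a and a chain number), and 44 of the 38924 genes in the table met this rule. The rule used names only and no measured value. Liver RNA was sequenced from 20 male mice in 4 groups of 5, after 12 weeks on control chow or on CDAHFD. This high fat diet lacks choline, is limited in methionine, takes its protein from defined amino acids and produces steatohepatitis and fibrosis. The groups were wild type (WT) mice on control diet (NDWT), TSP-1 knockout mice on control diet (NDKO), WT mice on CDAHFD (HFWT) and TSP-1 knockout mice on CDAHFD (HFKO), all labelled with the strain C57/BL6 (WT mice are C57BL/6J in the study's methods). Mice were bought at 5 weeks of age and acclimated for 1 week, and the knockout allele was carried by every cell of the animal rather than by one cell type. The comparisons asked how the diet changed collagen mRNA within each genotype and whether the absence of thrombospondin-1 (TSP-1, encoded by Thbs1), an activator of latent TGF-β1, changed it within each diet.

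Collagens are trimers of α chains wound into a triple helix, and each chain has its own gene. Fibrillar collagens (types I, III and V) form the scar fibres of a fibrotic liver, type IV forms the network of basement membranes, type VI forms beaded filaments around cells, FACIT collagens decorate fibril surfaces, and multiplexins such as type XVIII sit in basement membrane zones. In liver, hepatic stellate cells and portal fibroblasts that turn into myofibroblasts are the main known source of fibrillar collagen, whereas Col18a1, whose product carries endostatin at its end, is known to be made by hepatocytes as well.

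Libraries held 15641545 to 23276322 fragments assigned to genes, so that 3 fragments on a gene of 1 kb corresponded to 0.129 to 0.192 FPKM (fragments per kilobase of gene, scaled to library depth). Thbs1 did not follow the genotype labels. It lay between 0.058 and 0.326 FPKM in NDWT, between 0.986 and 1.90 in NDKO, between 3.46 and 6.10 in HFWT and between 3.05 and 4.40 in HFKO. Its level was therefore higher in control diet libraries labelled TSP-1 null than in WT (log2FC 2.28 ± 0.24 SE, limma FDR 1.02e-05) and did not differ past the threshold on CDAHFD (log2FC -0.39 ± 0.24, FDR 0.408). Whether this RNA carries the deleted part of the gene was not tested, and genotype comparisons below set libraries labelled TSP-1 null beside those labelled WT. The hepatocyte marker Alb was at group means of 22997 to 29725 FPKM, as in liver. In HFWT, library 1 was the highest of the 5 libraries for 17 of the 17 collagen genes called in both diet comparisons, and library 4 the lowest for 12. In HFKO, library 5 was the highest for 16 of them and library 4 the lowest for 14. The median of ratios scaling factor, which is larger where genes in general have higher FPKM, was also largest in HFWT library 1 (1.33) and HFKO library 5 (1.25) within their groups. It was lowest in HFWT library 5 (1.18) and HFKO library 2 (1.12). The order of libraries over all tested genes was not counted.

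A differentially expressed gene (DEG) had an absolute log2FC above 0.58 and a limma FDR below 0.05, adjusted over all genes of that comparison, on log2(FPKM + 0.1), a scale that understates the change of low genes. A gene was tested where FPKM exceeded 0.5 in at least 5 libraries. Of the 44 collagen genes, 21 were tested. Another 16 were below this filter with more than 3 fragments in some library. Col2a1, Col10a1, Col11a1, Col19a1 and Col22a1 never exceeded 3 fragments, and Col26a1 and Col6a4 had none. Of the 21 tested genes, 16 passed the filter on the control diet libraries alone. Col12a1, Col4a5, Col4a6, Col5a2 and Col8a1 passed only with the CDAHFD libraries, so for them the filter itself favoured a rise on CDAHFD.

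CDAHFD raised collagen mRNA in both genotypes. In WT, 17 of the 21 tested collagen genes were higher on CDAHFD and 0 were lower, where 44.1% of all 14524 tested genes were higher. Across the libraries labelled TSP-1 null, 17 were higher and 0 lower, against 41.9% of all tested genes. Among the 16 genes that passed the filter on control libraries alone, 12 were higher in WT and 12 in the libraries labelled TSP-1 null, where 37.9% and 35.9% of the 12117 genes passing in that way were higher. The median log2FC of these 16 genes was 2.50 in WT and 2.15 in the libraries labelled TSP-1 null, and that of all genes passing in that way was 0.44 and 0.42.

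The level of all genes depends on the scaling. With median of ratios scaling, the median log2FC of all genes moved from 0.53 to -0.01 in WT and from 0.50 to -0.01 in the libraries labelled TSP-1 null. The split of all DEGs moved from 6412 higher and 671 lower to 3299 and 2242 in WT, and from 6088 and 581 to 3225 and 1980 in the libraries labelled TSP-1 null. Quantile normalization gave 2738 higher and 2359 lower in WT, and 2690 and 1993 in the libraries labelled TSP-1 null. Under both scalings 16 or 17 collagen genes were higher in each genotype. Of all tested genes, 22.7% and 22.2% were higher with median of ratios scaling, and 18.9% and 18.5% with quantile normalization. Groups on the 2 diets did not overlap for 16 of the 21 tested collagen genes in WT and for 17 in the libraries labelled TSP-1 null, where 56.2% and 57.8% of all tested genes did not overlap.

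**Figure D1:**
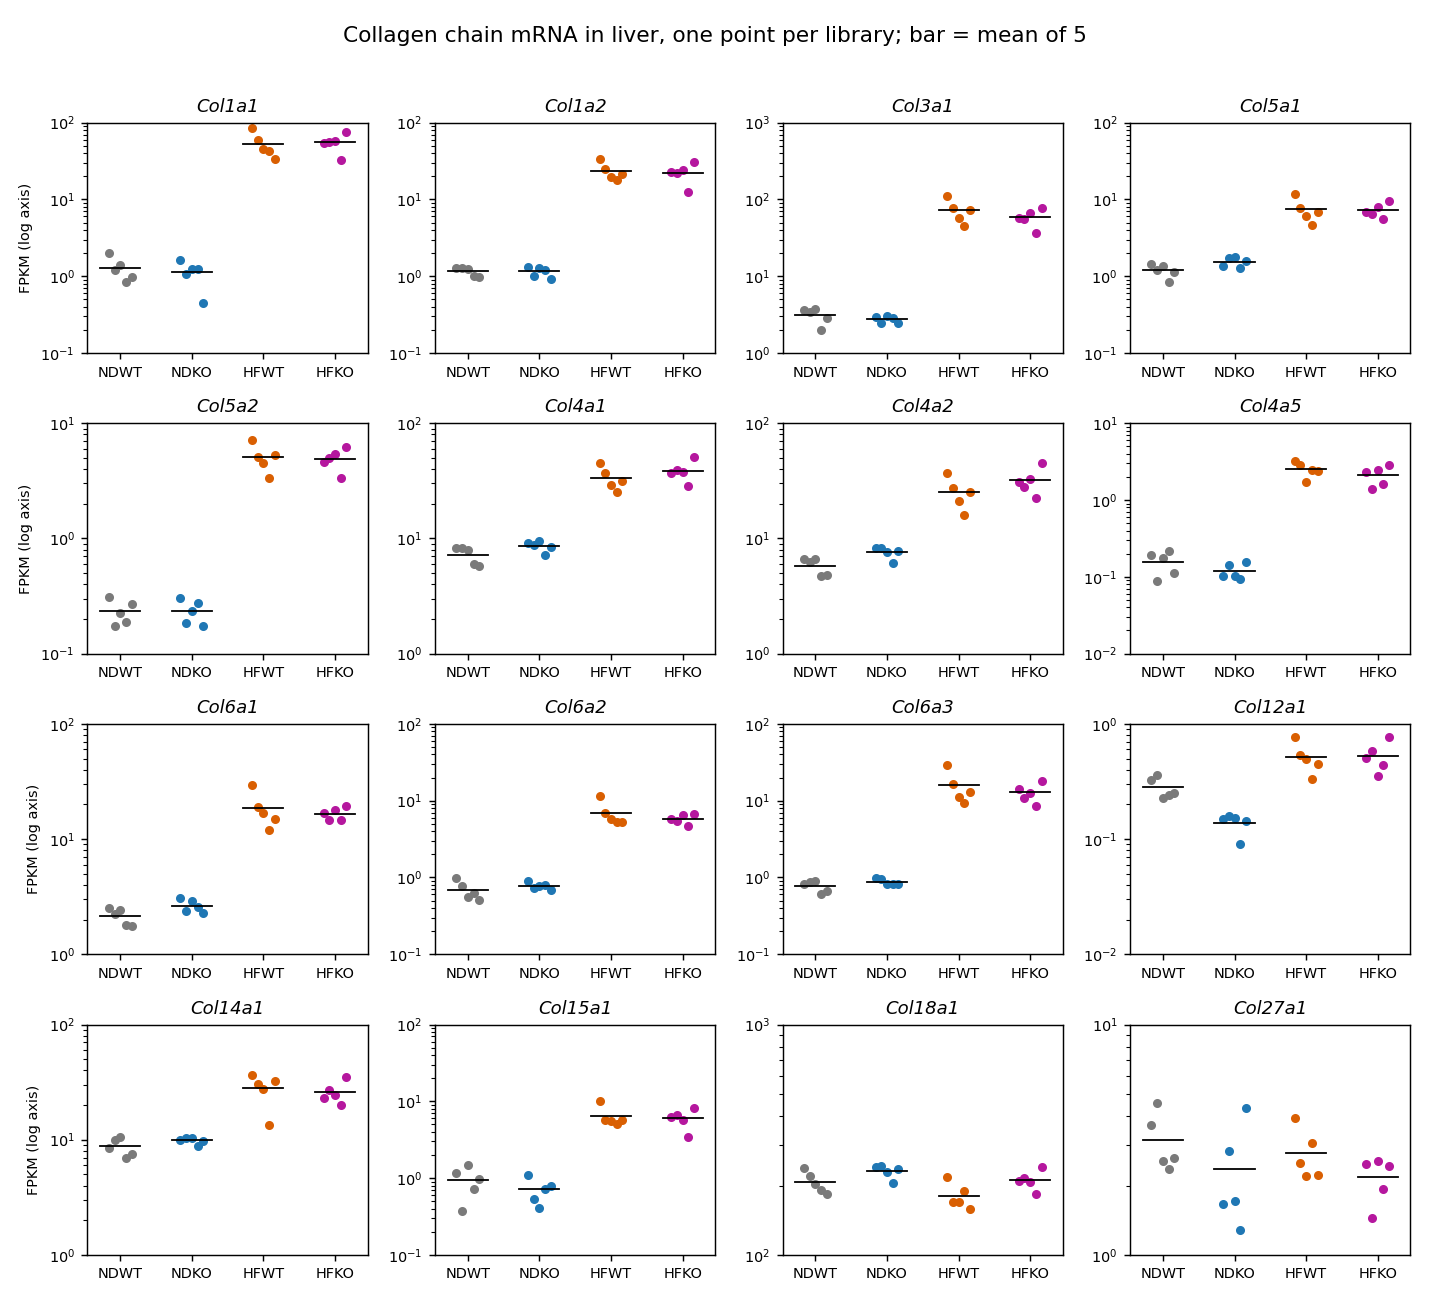
FPKM of 16 collagen genes on logarithmic axes, with 1 point per library, the mean of each group of 5 libraries as a bar, and the groups NDWT, NDKO, HFWT and HFKO along the x axis. The CDAHFD libraries lie above the control diet libraries in the panels of Col1a1, Col1a2, Col3a1, the type V chains, the type IV chains and the type VI chains, while the groups overlap for Col18a1 and Col27a1.

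Promoters were looked at because 17 collagen genes moved in the same direction. RefSeq promoters of build GRCm38.p6 were matched by symbol for 35 of the 44 genes, giving 38 windows of the 250 bases before the start. Shown are 4 called genes whose window held no annotated exon and whose start began an annotated transcript. They had the highest log2FC in WT among such genes except Col6a2 (3.12). Col6a2 also had another window that held annotated exons, and it is not shown. Col1a1 and Col5a2 had no window. Letters are lower case, and capitals mark exact matches on either strand, read as their reverse complement where the match is on the other strand. The letters searched were CCAAT for the box of that name, TATAA for the core of the TATA box, GGGCGG for the GC box bound by Sp1 and CAGACA for the SMAD box. No one of these holds another within it.

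Col3a1, chr1:45311288-45311537, plus strand: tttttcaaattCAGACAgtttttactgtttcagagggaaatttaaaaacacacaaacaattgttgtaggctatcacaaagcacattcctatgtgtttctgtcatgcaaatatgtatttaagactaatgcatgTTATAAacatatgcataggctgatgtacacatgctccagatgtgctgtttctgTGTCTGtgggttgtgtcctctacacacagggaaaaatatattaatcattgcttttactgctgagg
Col6a3, chr1:90843972-90844221, minus strand: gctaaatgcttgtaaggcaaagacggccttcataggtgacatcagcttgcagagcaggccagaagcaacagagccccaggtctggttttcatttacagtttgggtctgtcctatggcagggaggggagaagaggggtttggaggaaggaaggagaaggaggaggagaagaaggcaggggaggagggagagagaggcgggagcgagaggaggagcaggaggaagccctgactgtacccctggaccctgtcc
Col5a1, chr2:27886175-27886424, plus strand: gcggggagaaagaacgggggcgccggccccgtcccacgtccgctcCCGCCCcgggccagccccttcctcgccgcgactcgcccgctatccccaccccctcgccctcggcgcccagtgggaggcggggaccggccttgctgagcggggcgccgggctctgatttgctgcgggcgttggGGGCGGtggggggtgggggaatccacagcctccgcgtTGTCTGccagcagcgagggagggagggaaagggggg
Col4a6, chrX:141474077-141474326, minus strand: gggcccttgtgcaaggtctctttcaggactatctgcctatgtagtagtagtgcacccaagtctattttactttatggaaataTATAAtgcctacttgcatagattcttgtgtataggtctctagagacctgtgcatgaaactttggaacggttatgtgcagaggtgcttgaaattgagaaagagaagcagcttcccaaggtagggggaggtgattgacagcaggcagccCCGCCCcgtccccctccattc

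In Col3a1 the SMAD box letters begin 239 and 65 bases before the start, and TATAA matches on both strands overlap at 118 and 117 bases. In Col5a1 the GC box letters begin 205 and 73 bases before the start and the SMAD box letters 36 bases before it, and in Col4a6 TATAA begins at 168 and the GC box letters at 21 bases. None of the 4 motifs occurs in the Col6a3 window. The GC box letters were found in 22 of the 38 collagen windows and in 9 of the 14 windows of genes called in WT, and in 32.7% of all 32851 promoter windows of that length. CCAAT was found in 13 and 5 windows and in 33.8% of all, TATAA in 7 and 2 and in 22.8% of all, and the SMAD box letters in 9 and 4 and in 17.1% of all. A match describes letters in the window only.

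The fibrillar chains of types I and III had the largest log2FC of the 21 tested collagen genes on log2(FPKM + 0.1). This order depends on the pseudocount. By the ratio of mean FPKM, Col1a1 was again first (41.6-fold in WT and 49.1-fold in the libraries labelled TSP-1 null), but Col1a2 (20.2-fold and 19.4-fold) came after Col4a6 (22.6-fold and 24.3-fold) and Col5a2 (21.9-fold and 20.9-fold). Col3a1 (23.2-fold and 21.3-fold) came after Col4a6 in the libraries labelled TSP-1 null. In WT, Col6a3 (20.4-fold) was also ahead of Col1a2. Col1a1 (chromosome 11, 94936224 to 94953042, plus strand, GRCm38) encodes the α1 chain of type I collagen. Its FPKM was 2.00, 1.19, 1.40, 0.835 and 0.962 in NDWT libraries 1 to 5 and 84.5, 59.7, 45.0, 42.1 and 34.1 in HFWT libraries 1 to 5. It was 1.63, 1.05, 1.25, 1.24 and 0.452 in NDKO and 54.7, 55.6, 56.9, 32.6 and 76.5 in HFKO. Every CDAHFD library was above every control diet library, and the groups of the 2 genotypes overlapped on each diet. The log2FC on CDAHFD was 5.26 ± 0.30 (SE) in WT with FDR 1.69e-11 and 5.54 ± 0.30 in the libraries labelled TSP-1 null with FDR 1.22e-11. By log2FC, Col1a1 stood at place 19 of 14524 tested genes in WT and at place 13 in the libraries labelled TSP-1 null.

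Col1a2 (chromosome 6, 4504814 to 4541543, plus strand) encodes the α2 chain, the partner of α1 in type I collagen. Its FPKM was 1.29, 1.29, 1.24, 0.994 and 0.983 in NDWT and 33.7, 24.6, 19.8, 17.9 and 21.4 in HFWT. In the libraries labelled TSP-1 null it was 1.33, 1.02, 1.28, 1.21 and 0.917 on control diet and 22.6, 21.8, 24.1, 12.6 and 30.6 on CDAHFD. The diets did not overlap in either genotype. The log2FC was 4.20 ± 0.19 in WT and 4.12 ± 0.19 in the libraries labelled TSP-1 null, both below those of Col1a1.

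Col3a1 (chromosome 1, 45311538 to 45349706, plus strand) encodes the chain of type III collagen, which forms fibres together with type I. Its FPKM was 3.59, 3.45, 3.77, 2.00 and 2.87 in NDWT and 109, 78.3, 57.7, 45.5 and 72.3 in HFWT. It was 2.97, 2.49, 3.01, 2.88 and 2.44 in NDKO and 57.8, 55.8, 66.7, 36.6 and 76.8 in HFKO. The lowest CDAHFD library, HFKO library 4, was still far above the highest control library, NDWT library 3. The log2FC was 4.46 ± 0.21 in WT (FDR 2.15e-12) and 4.33 ± 0.21 in the libraries labelled TSP-1 null (FDR 4.46e-12).

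Type V collagen sets the diameter of type I fibrils. Col5a2 (chromosome 1, 45374321 to 45503282, minus strand), which lies tail to tail with Col3a1 at a distance of 24614 bases, had 0.309, 0.175, 0.223, 0.188 and 0.272 FPKM in NDWT and 7.20, 5.11, 4.56, 3.35 and 5.31 FPKM in HFWT. In NDKO it had 0.303, 0.184, 0.234, 0.274 and 0.175 FPKM, and in HFKO 4.65, 4.95, 5.38, 3.32 and 6.16 FPKM. The diets were apart by a wide margin, with log2FC 3.94 ± 0.19 in WT and 3.89 ± 0.19 in the libraries labelled TSP-1 null.

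Col5a1 (chromosome 2, 27886425 to 28039514, plus strand), the other main type V chain, had 1.46, 1.20, 1.34, 0.831 and 1.12 FPKM in NDWT and 11.9, 7.68, 6.16, 4.58 and 6.88 FPKM in HFWT. It had 1.38, 1.71, 1.78, 1.26 and 1.57 FPKM in NDKO and 6.86, 6.51, 8.06, 5.63 and 9.64 FPKM in HFKO. All CDAHFD libraries exceeded all control libraries, with a smaller log2FC than that of Col5a2, 2.50 ± 0.20 in WT and 2.17 ± 0.20 in the libraries labelled TSP-1 null. Col5a3, the third type V chain, did not pass the test in either genotype, with mean FPKM of 8.16, 6.40, 8.18 and 7.06 in NDWT, NDKO, HFWT and HFKO and log2FC 0.02 (95% interval -0.35 to 0.39) in WT. Col27a1, a fibrillar chain of cartilage, also did not pass on FPKM as deposited, with log2FC -0.16 (-0.73 to 0.40) in WT and -0.02 (-0.58 to 0.55) in the libraries labelled TSP-1 null, but was called lower in WT with median of ratios scaling (log2FC -0.71) and in both genotypes with quantile normalization (-0.94 and -0.78). Of the 11 fibrillar genes, 7 were tested and 5 rose in each genotype, where 44.1% and 41.9% of all tested genes were higher, and Col5a2 among the 5 passed the filter only with the CDAHFD libraries.

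**Figure D2:**
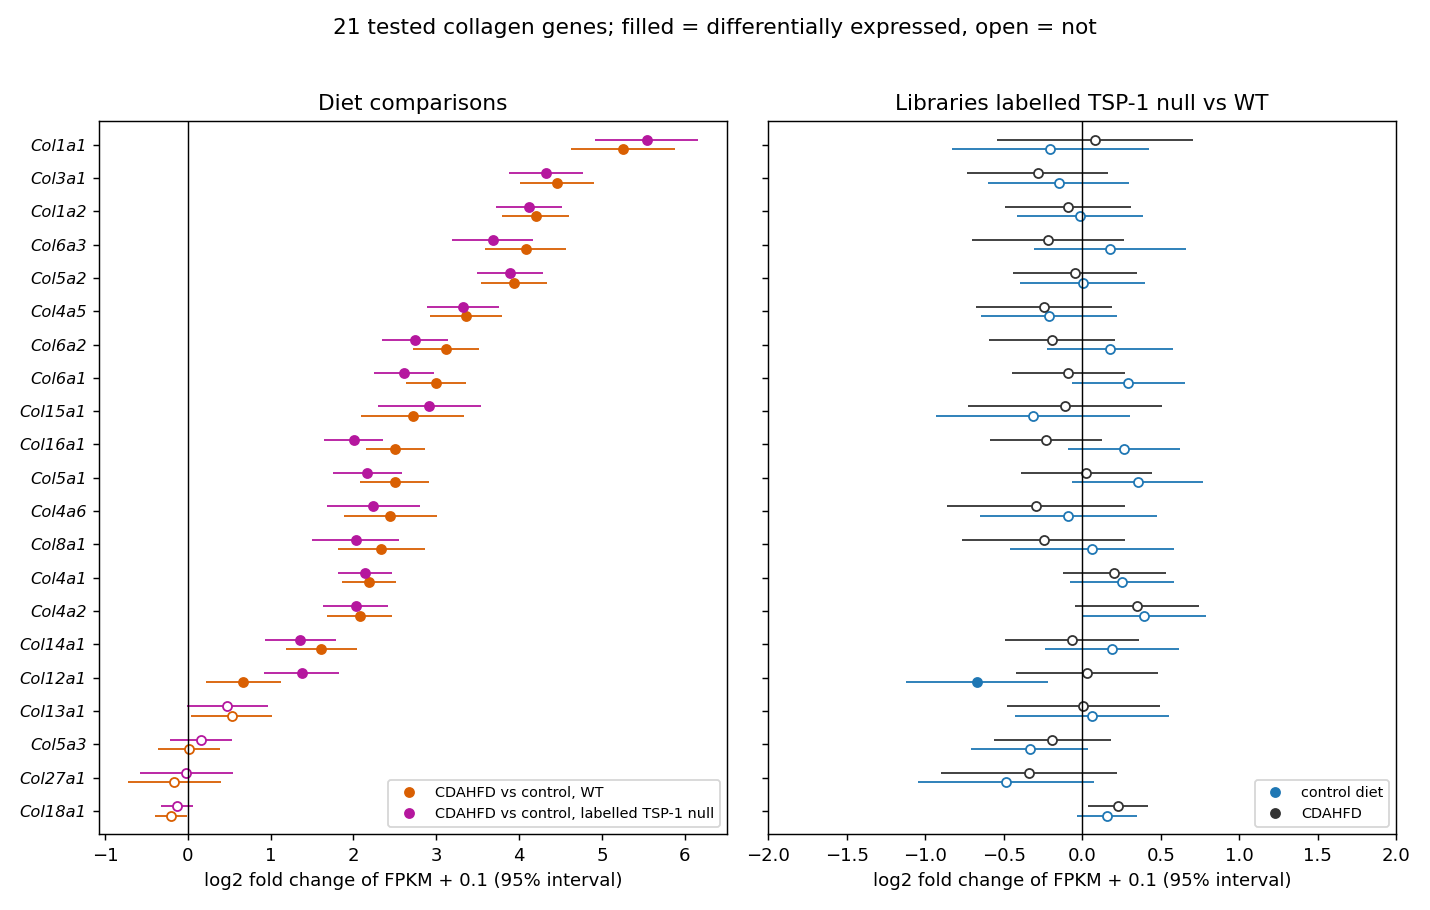
The log2 fold change of FPKM + 0.1 with its 95% interval for the 21 tested collagen genes, on the left for CDAHFD against control diet in WT and in libraries labelled TSP-1 null, and on the right for the labelled genotypes within each diet (TSP-1 null minus WT); filled points were DEGs and open points were not. Diet values reach from -0.20 for Col18a1 to 5.26 for Col1a1 in WT, whereas the genotype values lie between -0.67 and 0.39 on control diet, where Col12a1 is the filled point, and between -0.34 and 0.35 on CDAHFD.

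Of the basement membrane collagen IV genes, Col4a1 and Col4a2 had a smaller log2FC than the fibrillar chains of types I and III. The α1 and α2 chains, which together make the common type IV network, are encoded head to head on chromosome 8 (Col4a1, 11198423 to 11312826, minus strand, and Col4a2, 11312805 to 11449287, plus strand), so that their annotated spans share 22 bases. Col4a1 had 8.29, 8.25, 7.93, 5.96 and 5.76 FPKM in NDWT, and 45.0, 37.1, 29.2, 25.1 and 31.4 FPKM in HFWT. In NDKO it had 9.04, 8.79, 9.56, 7.12 and 8.38 FPKM, and in HFKO 36.8, 38.9, 37.7, 28.7 and 50.5 FPKM. Every CDAHFD library was above every control library, and log2FC was 2.19 ± 0.16 in WT and 2.14 ± 0.16 in the libraries labelled TSP-1 null.

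Col4a2 had 6.60, 6.20, 6.58, 4.70 and 4.83 FPKM in NDWT and 36.6, 27.4, 21.2, 16.1 and 25.2 FPKM in HFWT. It had 8.21, 8.30, 7.58, 6.12 and 7.77 FPKM in NDKO and 30.7, 28.1, 32.9, 22.5 and 45.1 FPKM in HFKO. The diets did not overlap, and the log2FC of 2.07 ± 0.19 and 2.03 ± 0.19 was near that of its head to head partner. Col4a5 (chromosome X, 141475385 to 141689234, plus strand), a chain of the type IV network of kidney and smooth muscle, started from low levels, with 0.192, 0.0890, 0.176, 0.217 and 0.112 FPKM in NDWT and 3.25, 2.88, 1.71, 2.44 and 2.40 FPKM in HFWT. In NDKO it had 0.101, 0.144, 0.103, 0.0930 and 0.155 FPKM, and in HFKO 2.35, 1.41, 2.48, 1.64 and 2.84 FPKM. The diets were fully apart, with log2FC 3.35 ± 0.21 in WT and 3.32 ± 0.21 in the libraries labelled TSP-1 null. Its head to head neighbour Col4a6, 1308 bases away, rose from a mean of 0.0276 to 0.624 FPKM in WT and from 0.0194 to 0.472 FPKM in the libraries labelled TSP-1 null. All 4 tested type IV genes rose in each genotype, 2 of which, Col4a5 and Col4a6, passed the filter only with the CDAHFD libraries, where 44.1% and 41.9% of all tested genes were higher. Col4a6 had 1 to 10 fragments in NDWT and 0 to 5 in NDKO, and its call in the libraries labelled TSP-1 null was lost with a pseudocount of 1 (log2FC 0.53).

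Type VI collagen is a heterotrimer of the products of Col6a1, Col6a2 and Col6a3. Of the 6 type VI genes these 3 were tested. All 3 rose in both genotypes, where 44.1% and 41.9% of all tested genes were higher. Col6a3 (chromosome 1, 90765923 to 90843971, minus strand) had 0.822, 0.872, 0.906, 0.604 and 0.670 FPKM in NDWT and 29.1, 16.4, 11.1, 9.44 and 13.0 FPKM in HFWT. It had 0.972, 0.949, 0.832, 0.832 and 0.831 FPKM in NDKO and 14.2, 10.9, 12.7, 8.53 and 18.0 FPKM in HFKO. HFWT library 1 was the highest of all, and the diets did not overlap. The log2FC was 4.08 ± 0.23 in WT and 3.68 ± 0.23 in the libraries labelled TSP-1 null.

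Col6a1 (chromosome 10, 76708792 to 76726168, minus strand) had 2.52, 2.26, 2.40, 1.80 and 1.76 FPKM in NDWT and 29.3, 18.9, 17.0, 12.0 and 14.9 FPKM in HFWT, and had 3.05, 2.39, 2.89, 2.58 and 2.29 FPKM in NDKO and 16.9, 14.7, 18.0, 14.6 and 19.2 FPKM in HFKO. Col6a2, on the same strand 85161 bases away (76595762 to 76623630), had 0.980, 0.784, 0.553, 0.630 and 0.506 FPKM in NDWT and 11.6, 6.84, 5.76, 5.25 and 5.20 FPKM in HFWT, and had 0.908, 0.724, 0.764, 0.804 and 0.689 FPKM in NDKO and 5.78, 5.42, 6.48, 4.65 and 6.76 FPKM in HFKO. Control and CDAHFD libraries did not overlap for either gene, and HFWT library 1 was again the highest. Their log2FC was 2.99 ± 0.17 and 3.12 ± 0.19 in WT, and 2.61 ± 0.17 and 2.75 ± 0.19 in the libraries labelled TSP-1 null.

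Of the FACIT collagens, 3 of 9 genes were tested and all 3 rose in both genotypes, where 44.1% and 41.9% of all tested genes were higher, and Col12a1 passed the filter only with the CDAHFD libraries. Col14a1, which binds the surface of type I fibrils, had the second highest collagen level in control liver and went from 8.74 ± 1.56 FPKM (SD, n = 5) in NDWT to 28.1 ± 8.86 in HFWT and from 9.88 ± 0.63 in NDKO to 25.9 ± 5.59 in HFKO. Col16a1 had log2FC 2.50 ± 0.17 in WT and 2.01 ± 0.17 in the libraries labelled TSP-1 null. Col12a1 (chromosome 9, 79598991 to 79718831, minus strand), a FACIT collagen of dense connective tissue, had 0.324, 0.362, 0.225, 0.241 and 0.253 FPKM in NDWT and 0.772, 0.536, 0.499, 0.329 and 0.452 FPKM in HFWT. It had 0.149, 0.159, 0.151, 0.0900 and 0.143 FPKM in NDKO and 0.502, 0.583, 0.350, 0.442 and 0.775 FPKM in HFKO. HFWT library 4 lay below NDWT library 2, so the diets overlapped in WT, whereas in the libraries labelled TSP-1 null they did not. The log2FC was 0.67 ± 0.22 in WT (FDR 0.00902) and 1.38 ± 0.22 in the libraries labelled TSP-1 null (FDR 1.31e-05). The WT call was lost without HFWT library 1 (log2FC 0.54), and the WT direction turned to -0.34 with quantile normalization, where FDR was 0.180. The WT call was also lost with median of ratios scaling (log2FC 0.23), the call in the libraries labelled TSP-1 null with quantile normalization (0.50), and both calls with a pseudocount of 1.

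The 2 multiplexins behaved differently. Col15a1, made by endothelial and mural cells, rose with log2FC 2.71 ± 0.30 in WT and 2.92 ± 0.30 in the libraries labelled TSP-1 null. Col18a1 (chromosome 10, 77052178 to 77166548, minus strand) did not pass the test, with log2FC -0.20 (95% interval -0.39 to -0.01, FDR 0.0555) and -0.13 (-0.32 to 0.06), and was called lower in both genotypes with median of ratios scaling (-0.76 and -0.67). Col8a1, a short chain collagen of vessel walls, rose with log2FC 2.34 ± 0.25 and 2.03 ± 0.25. Col13a1, a transmembrane collagen, passed the FDR in WT (log2FC 0.53, FDR 0.0478) but not the fold threshold.

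**Figure D3:**
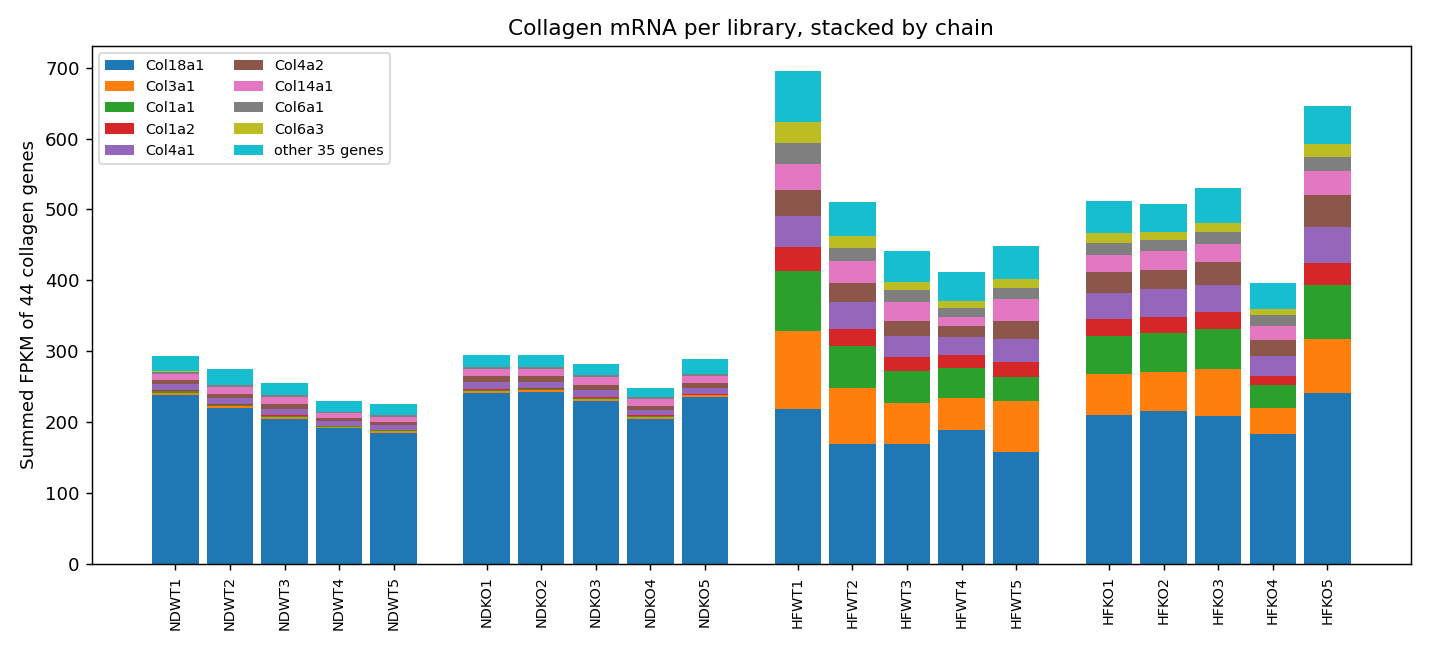
Summed FPKM of the 44 collagen genes in each of the 20 libraries as stacked bars, with 9 genes shown on their own and the other 35 together. Col18a1 forms the tallest segment in every library, and the segments above it are larger on CDAHFD, with HFWT library 1 at 696 FPKM the highest of all libraries.

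Col18a1 mRNA was the most abundant collagen mRNA of the liver in all 4 groups. On control diet its level was 207 ± 21.7 FPKM (SD, n = 5) in WT libraries and 231 ± 15.5 in those labelled TSP-1 null, on CDAHFD it was 181 ± 24.0 and 211 ± 20.5, and in each group it exceeded the next gene without overlap. It made up 81.1% ± 1.38 of summed collagen FPKM in NDWT but 36.8% ± 5.68 in HFWT, and 81.9% ± 0.386 in NDKO but 41.2% ± 3.38 in HFKO. Summed collagen FPKM went from 256 ± 28.9 in NDWT to 501 ± 115 in HFWT, and from 282 ± 19.4 in NDKO to 518 ± 88.9 in HFKO. Without Col18a1 it went from 48.6 ± 7.96 to 321 ± 97.2 FPKM in WT, and from 50.9 ± 4.04 to 307 ± 69.0 FPKM in the libraries labelled TSP-1 null. Fibrillar chains took 7.24% ± 0.925 of the sum in NDWT and 34.1% ± 2.78 in HFWT, and 5.69% ± 0.491 in NDKO and 30.2% ± 2.85 in HFKO.

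The order of levels below Col18a1 also changed. In NDWT, Col14a1 (8.74 FPKM), Col5a3 (8.16) and Col4a1 (7.24) followed, each overlapping the next, and Col1a1 was in place 10 at 1.28 FPKM. In HFWT, Col3a1 at 72.6 ± 24.2 FPKM, Col1a1 at 53.1 ± 19.9, Col4a1 at 33.6 ± 7.72 and Col14a1 at 28.1 ± 8.86 followed, and in HFKO Col3a1 at 58.8 ± 14.9, Col1a1 at 55.2 ± 15.6, Col4a1 at 38.5 ± 7.83 and Col4a2 at 31.9 ± 8.33. In each of these CDAHFD orders, neighbours after Col18a1 overlapped between libraries, although Col3a1 was above Col1a1 within each of the 5 HFWT and each of the 5 HFKO libraries.

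Within each library, the ratio of 2 chains does not depend on scaling between libraries. FPKM divides by the full length of annotated exons, which for Col1a2 is 12136 bases against 5348 for its longest coding transcript, so a ratio is not the number of chains per trimer, while its change between groups is unaffected by length if the same transcripts are made. The ratio of Col1a1 to Col1a2 was 1.55, 0.917, 1.14, 0.840 and 0.979 in NDWT and 2.51, 2.42, 2.28, 2.35 and 1.59 in HFWT. It was 1.22, 1.03, 0.982, 1.02 and 0.493 in NDKO and 2.41, 2.55, 2.36, 2.58 and 2.50 in HFKO. The diets did not overlap in either genotype, and the lowest CDAHFD ratio, in HFWT library 5, lay close to the highest control ratio, in NDWT library 1. The mean ratio rose from 1.08 ± 0.280 (SD, n = 5) to 2.23 ± 0.366 in WT, a 2.08-fold change on the log scale (exact permutation p = 0.00794, two-sided, from 252 arrangements, Benjamini-Hochberg adjusted p = 0.0317 over 16 tests). In the libraries labelled TSP-1 null it rose from 0.951 ± 0.273 to 2.48 ± 0.0919, 2.72-fold (exact permutation p = 0.00794, adjusted p = 0.0317). With 5 libraries against 5, 0.00794 is the smallest p that this test can give.

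The ratio of Col3a1 to Col1a1 went the other way. It was 1.80, 2.91, 2.69, 2.39 and 2.98 in NDWT, 1.29, 1.31, 1.28, 1.08 and 2.12 in HFWT, 1.82, 2.36, 2.40, 2.32 and 5.41 in NDKO and 1.06, 1.00, 1.17, 1.12 and 1.00 in HFKO. In the libraries labelled TSP-1 null, all CDAHFD ratios were below all control ratios, whereas in WT HFWT library 5 lay above NDWT library 1. The log2 difference was -1.31 in the libraries labelled TSP-1 null (exact permutation p = 0.00794, adjusted p = 0.0317) and -0.87 in WT (exact permutation p = 0.0159, adjusted p = 0.0508, not past the threshold). The ratio of Col4a1 to Col4a2 stayed between 1.06 and 1.56 in all 20 libraries, and no comparison of it passed (adjusted exact permutation p of 0.0907 or more). The ratio of Col6a1 to Col6a2 fell from 3.40 ± 0.224 in NDKO to 2.88 ± 0.164 in HFKO (adjusted exact permutation p = 0.0317), a difference that was lost when 0.1 was added to both FPKM values (adjusted p = 0.0847), and it did not pass in WT (adjusted p = 0.208).

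**Figure D4:**
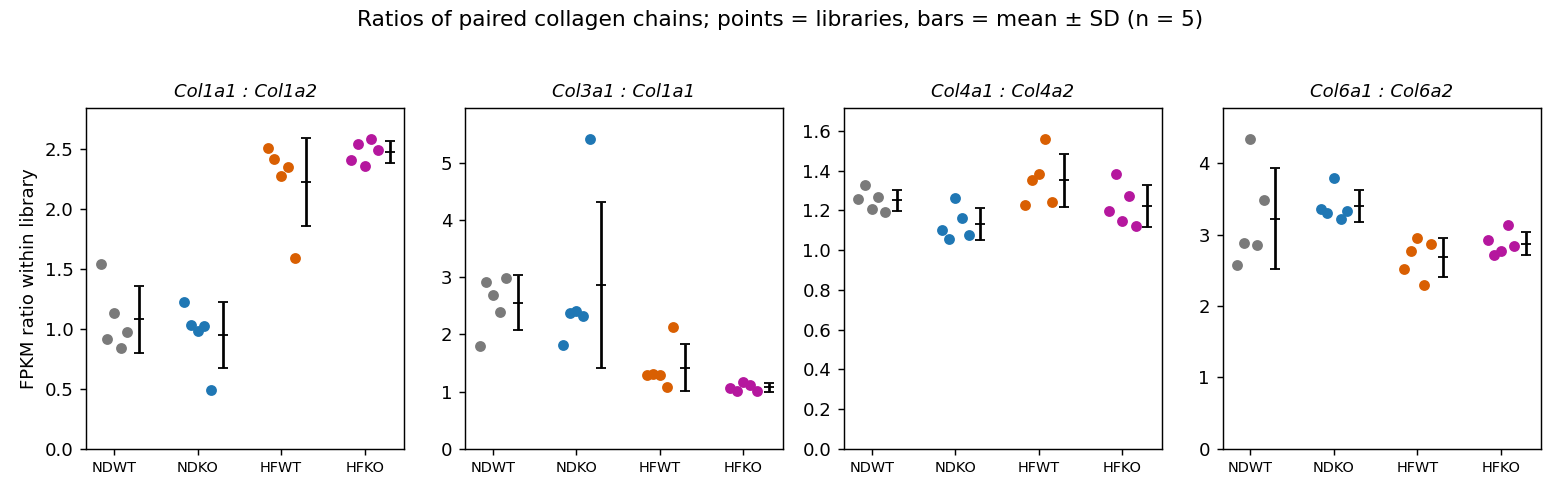
Ratio of the FPKM of 2 collagen chains within each library, in 4 panels with linear axes from 0, for NDWT, NDKO, HFWT and HFKO, with points for libraries and the mean ± SD of 5 libraries beside them. The Col1a1 to Col1a2 ratio is 1.55 or lower in every control library and 1.59 or higher in every CDAHFD library, while Col4a1 to Col4a2 stays between 1.06 and 1.56.

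Libraries of 1 group that were high in one chain were often high in another. Correlations were computed over the 10 libraries of each diet after subtracting the mean of each genotype group, with exact permutation of the pairings within genotype and adjustment over 10 tests. Col1a1 and Col1a2 gave Pearson r = 0.869 on control diet (exact permutation adjusted p = 0.00521, Spearman rho 0.770, adjusted p = 0.0333) and r = 0.917 on CDAHFD (adjusted p = 0.00671, rho 0.939, adjusted p = 0.00833). Without the 2 libraries farthest from the median of Col1a1, r was 0.866 and 0.993. Col1a1 and Col3a1 gave r = 0.666 (exact permutation adjusted p = 0.0170, rho 0.673, adjusted p = 0.0603) and 0.832 (adjusted p = 0.0170, rho 0.855, adjusted p = 0.0144), and 0.839 and 0.962 without the 2 farthest libraries.

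Col4a1 and Col4a2 gave r = 0.922 on control diet (exact permutation adjusted p = 0.0208) with rho 0.709 (adjusted p = 0.0796), and r = 0.785 without NDWT libraries 4 and 5 (exact permutation p = 0.136). The control diet relation kept its sign but did not pass with these 8 libraries. On CDAHFD r was 0.968 (exact permutation adjusted p = 0.00521, rho 0.903, adjusted p = 0.00833) and 0.939 without the 2 farthest libraries. Col1a1 and Col4a1, a fibrillar and a basement membrane chain, gave r = 0.895 on CDAHFD (exact permutation adjusted p = 0.00990, rho 0.952, adjusted p = 0.00833, r = 0.979 without the 2 farthest) and r = 0.470 on control diet (adjusted p = 0.211, rho 0.612, adjusted p = 0.0796, r = 0.619 without the 2 farthest), and whether the diets differ was not tested. Col1a1 and Acta2, the smooth muscle actin of myofibroblasts, gave r = -0.05 on control diet (exact permutation adjusted p = 0.904, rho 0.0303, adjusted p = 0.958, r = -0.34 without the 2 farthest) and r = 0.237 on CDAHFD (adjusted p = 0.579, rho 0.212, adjusted p = 0.646, r = 0.674 without the 2 farthest). Chains of 1 library share its tissue piece, RNA and depth.

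On CDAHFD, 0 of the 21 tested collagen genes was a DEG between the labelled genotypes, where 0.496% of all tested genes were, and 0 did not overlap, where 4.98% of all tested genes did not. At an unadjusted limma p under 0.05 there was 1, Col18a1 (log2FC 0.23, 95% interval 0.04 to 0.42, FDR 0.209). The intervals bound the difference of the main scar chains at log2FC -0.54 to 0.71 for Col1a1, -0.49 to 0.31 for Col1a2 and -0.73 to 0.17 for Col3a1. On control diet 1 of 21 was a DEG, against 4.77% of all tested genes, and the groups of 1 did not overlap, against 9.03%. This gene was Col12a1, lower in NDKO by log2FC -0.67 ± 0.22 with FDR 0.0460, a call that was lost with a pseudocount of 1, without a filter, with quantile normalization, without any 1 of the NDWT or NDKO libraries, and without HFWT library 2 or 3 or HFKO library 1, 2 or 4. Leaving out 1 library gave log2FC of -0.59 to -0.73. The summed level of stellate cell markers was also apart between these groups, at 65.0 to 79.0 FPKM in NDWT and 83.4 to 89.9 in NDKO. Most of this sum was Dcn, with mean levels of 42.8 and 51.7 FPKM, while Acta2 was called lower in NDKO (log2FC -1.13, FDR 0.0155). Stellate cell markers' part in the collagen values was not tested. Without NDKO library 5, Col27a1 was called lower in place of Col12a1 (log2FC -0.73, FDR 0.0458). Col4a2 had an unadjusted p of 0.0497 (log2FC 0.39, FDR 0.182). The interaction of diet and genotype had 0 collagen DEGs, against 0.647% of all tested genes, and 1 at an unadjusted limma p under 0.05, Col12a1 (log2FC 0.70 ± 0.31, FDR 0.277). None of the 8 genotype tests of the 4 chain ratios passed, and the lowest adjusted exact permutation p was 0.0635 for Col3a1 to Col1a1 on CDAHFD. Since Thbs1 RNA was higher in NDKO than in NDWT and did not differ past the threshold on CDAHFD, these values describe labelled groups only.

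The 23 collagen genes below the filter had no fitted test. In WT, 7 of them were higher in every CDAHFD library than in every control library and 0 were lower, where 5.56% of the 24400 genes below the filter were higher in this way. In the libraries labelled TSP-1 null these were 7 and 0, against 4.59%. Of the 38924 genes of the table, 25536 had a value above 0 in some library, so many of the 24400 had none. Such genes could not be called, so both shares are lower than among detected genes below the filter. Of the 23 collagen genes, only Col26a1 and Col6a4 had no fragment. Col9a3, a cartilage FACIT chain of which 6.07% of exon bases are shared with Tcfl5 on the opposite strand, had 2 to 7 fragments in NDWT and 21 to 62 in HFWT, and 0 to 5 in NDKO and 24 to 41 in HFKO, with a mean FPKM 9.51 times and 14.8 times as high. Its type IX partner Col9a2 had 0 fragments in every NDWT library and 5 to 22 in HFWT libraries, at least 3.64-fold higher against a floor of 3 fragments per library. Col9a2 had 0 to 1 fragments in NDKO and 3 to 11 in HFKO, so its lowest HFKO library was at that floor. Col9a1, the remaining type IX chain, had 0 fragments in all 10 control libraries and at most 4 on CDAHFD, which was not detectable as a difference at this depth.

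Col4a3 and Col4a4, whose starts lie 71 bases apart on opposite strands of chromosome 1, make the type IV network of the glomerulus with Col4a5. Col4a4 had 5 to 15 fragments in NDWT and 41 to 92 in HFWT, and 5 to 16 in NDKO and 24 to 60 in HFKO. Col4a3 had 12 to 25 and 56 to 72, and 14 to 30 and 40 to 66, with 5.65% of its exon bases shared with a gene on the opposite strand. Neither overlapped between diets in FPKM. Col8a2 and Col23a1 were also without overlap in both genotypes, Col6a5 only in WT and Col7a1, the anchoring fibril chain of skin, only in the libraries labelled TSP-1 null, where it had 8 to 16 fragments on control diet and 14 to 29 on CDAHFD. A difference between the genotypes in these last 2 genes was not tested.

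Genes that process collagen were described from lists. Of 20 genes of procollagen folding and modification, 18 were tested, 8 rose in WT and 12 in the libraries labelled TSP-1 null, and 0 fell, with median log2FC 0.47 and 0.75 against 0.53 and 0.50 for all tested genes. Of all tested genes 44.1% were higher in WT and 41.9% in the libraries labelled TSP-1 null, so the WT count of this list was near that of all genes. On control diet 2 of the 18, P4ha1 and P4ha2, were called lower in NDKO than in NDWT (log2FC -0.73 and -0.72), against 4.77% of all tested genes called. Between the genotypes on CDAHFD and for the interaction 0 of the 18 were called, against 0.496% and 0.647%. The counts of 8 and 12 are therefore not a called difference in diet response. This list depended on the scaling: with median of ratios scaling 7 rose and 4 fell in WT and 6 rose and 1 fell in the libraries labelled TSP-1 null, and with quantile normalization 6 rose and 2 fell, and 7 rose and 1 fell. Of all 14524 tested genes, 22.7% and 22.2% were higher with median of ratios scaling, and 18.9% and 18.5% with quantile normalization. In the same order, 2242 and 1980, and 2359 and 1993 genes were lower. Fkbp10, a collagen chaperone, rose with log2FC 3.24 and 2.67. Plod2, which hydroxylates telopeptide lysines, rose with log2FC 3.10 and 2.23, P3h3 with 2.33 and 2.08, and Crtap, part of the prolyl 3-hydroxylase complex, with 2.04 and 2.06. These 4 genes were called higher in both genotypes under both other scalings.

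Of 10 genes of procollagen cleavage, 6 were tested, and 3 rose in each genotype, a share near the 44.1% and 41.9% of all tested genes: Adamts2 (log2FC 3.16 and 2.61) and Adamts14 (2.08 and 2.37), which remove amino-terminal propeptides, and Pcolce (2.21 and 1.80), an enhancer of carboxy-terminal cleavage. Pcolce2 fell in WT (log2FC -1.24), and Bmp1, the carboxy-terminal protease, had log2FC -0.52 and -0.56, short of the fold threshold. With both other scalings Pcolce2 and Bmp1 were called lower in both genotypes, and the 3 genes that rose did so again. Of 13 collagen receptors and uptake genes, 10 were tested and 8 rose in each genotype, against 44.1% and 41.9% of all tested genes. With median of ratios scaling 7 rose in each genotype, and with quantile normalization 7 rose in WT and 5 in the libraries labelled TSP-1 null. Of all tested genes, 22.7% and 22.2% were higher with median of ratios scaling, and 18.9% and 18.5% with quantile normalization. Itga10 was lower in WT (log2FC -0.66) and, under both other scalings, in both genotypes. Ddr1, a collagen-binding receptor kinase, rose with log2FC 4.29 and 4.01, Mrc2, which takes up collagen for breakdown, with 3.78 and 3.28, the inhibitory leukocyte receptor Lair1 with 2.40 and 2.01, and Adgrg1 with 2.13 and 1.60.

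Markers of several cell types moved with the diet. On FPKM as deposited, their counts stand beside the 44.1% of all tested genes that were higher in WT and the 41.9% in the libraries labelled TSP-1 null. Of all 14524 tested genes, 671 were lower in WT and 581 in the libraries labelled TSP-1 null. In bulk tissue, more cells of a type and more RNA per cell cannot be told apart. All 12 stellate cell and myofibroblast markers rose in both genotypes, with summed levels of 65.0 to 79.0 FPKM for NDWT, 83.4 to 89.9 for NDKO, 217 to 388 for HFWT and 242 to 278 for HFKO, and Timp1 listed at 0 in some NDKO library. The sums of the other lists are given in the same order of groups. Portal fibroblast and mesothelial markers rose in 7 of 7 tested in WT and 5 of 7 in the libraries labelled TSP-1 null, with sums of 3.51 to 7.05, 4.39 to 5.76, 33.5 to 77.7 and 33.7 to 51.7 FPKM, and Gli1 listed at 0 in some NDWT library. All 5 tested cholangiocyte markers rose in both, with sums of 15.2 to 18.0, 12.4 to 15.6, 292 to 488 and 182 to 360 FPKM. Most of these sums was Spp1, with mean levels of 13.6, 10.8, 379 and 252 FPKM. Cftr was listed at 0 in some control libraries. Endothelial markers were called higher in 2 and 3 of 8, with sums of 58.5 to 62.3, 47.8 to 58.2, 53.2 to 77.1 and 58.2 to 88.1 FPKM. Of 7 macrophage markers, 4 rose and 2 fell in WT and 5 rose and 2 fell in the libraries labelled TSP-1 null, with sums of 159 to 219, 135 to 229, 254 to 398 and 219 to 499 FPKM. Of 8 hepatocyte markers 2 fell in WT and 3 in the libraries labelled TSP-1 null, and their sums overlapped between the diets within each genotype. With median of ratios scaling, stellate cell markers rose in 9 and 8 of 12, endothelial markers in 0 and 1 of 8 with 2 and 0 lower, and hepatocyte markers fell in 8 and 5 of 8. There, 22.7% and 22.2% of all 14524 tested genes were higher, and 2242 and 1980 genes were lower. With quantile normalization, stellate cell markers rose in 9 and 8 of 12, endothelial markers in 0 and 1 of 8 with 2 and 0 lower, portal fibroblast and mesothelial markers in 5 and 4 of 7, and hepatocyte markers fell in 1 and 2 of 8. There, 18.9% and 18.5% of all 14524 tested genes were higher, and 2359 and 1993 genes were lower. The part of these cell types in the collagen values was not tested.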

How the data were processed

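Liver RNA of 20 mice was selected with oligo(dT), made into directional libraries and sequenced as paired reads. Per the labels and the study's methods, the authors aligned reads with STAR 2.5.2, counted fragments per gene with featureCounts of Subread 1.5.1 and deposited FPKM, with 1 column per library. The labels name GRCh38, but gene coordinates in the deposited table are those of mouse GRCm38. The strand setting and annotation release are not given in the sources used here, so overlapping genes cannot be told apart. Whole fragments were recovered from the deposited FPKM only to give depth, 15641545 to 23276322 per library, and fragment ranges. A floor of 3 fragments covers counting error only. Pairs of libraries of 1 group differed far beyond sampling noise (lowest chi-square per degree of freedom 12.1 over 40 pairs).

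Genes above 0.5 FPKM in at least 5 libraries were fitted on log2(FPKM + 0.1) with limma 3.58.1 in R 4.3.3, with a mean per group over all 20 libraries, moderated variances with a trend, and Benjamini-Hochberg adjustment over all genes tested within each comparison. Standard errors are from this fit, and ± beside a level or ratio is the SD of 5 libraries. Ratios were tested with two-sided exact permutation tests in Python 3.11.15 with scipy 1.17.1. The fit was tested on simulated data. Labels do not say that replicate numbers pair mice. Values in every library are given for Col1a1, Col1a2, Col3a1, Col4a1, Col4a2, Col5a1, Col5a2, Col6a1, Col6a2 and Col6a3, the 6 tested collagen genes with the highest log2FC in WT, and any called lower with diet or called in a genotype comparison or the interaction. Genes that passed the FDR within 0.2 of the fold threshold were named, as were up to 4 genes per pathway list by lowest FDR in WT. Members, lists and this rule were chosen with earlier results of these data known. Pcolce2, Itga10 and the other collagen genes named singly were chosen after their values were seen. Alternatives were other pseudocounts of 0.01 and 1, other filters, quantile normalization, scaling by the median of ratios, calls without a fold threshold, fits of the compared groups alone, a replicate block and leaving out each library. List counts under the other scalings were added after seeing the data. The series text names the right medial lobe and the study's methods the right lateral lobe.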

Additional observations from a re-analysis of the deposited data

Results flagged for a closer look

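Of 100 groups of 5 libraries looked at, 7 had 1 library whose gap to the others was a large part of the group's range by Dixon's criterion, and chance marks about 1 group in 20. Col6a2 was 11.6 FPKM in HFWT library 1 and 5.20 to 6.84 in the other HFWT libraries. Col15a1 was 10.2 FPKM in HFWT library 1 and 5.13 to 5.78 in the others. Col12a1 was 0.0900 FPKM in NDKO library 4 and 0.143 to 0.159 in the others. The ratio of Col1a1 to Col1a2 was 1.59 in HFWT library 5 and 2.28 to 2.51 in the others. The ratio of Col3a1 to Col1a1 was 2.12 in the same HFWT library 5 and 1.08 to 1.31 in the others, and it was 5.41 in NDKO library 5, where Col1a1 had the lowest fragment number of all libraries, and 1.82 to 2.40 in the other NDKO libraries. The ratio of Col6a1 to Col6a2 was 3.79 in NDKO library 3 and 3.22 to 3.36 in the others.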

How the results depend on the processing

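With the replicate number as a block, the counts of called collagen genes were 17 in WT, 17 in the libraries labelled TSP-1 null, 1 on control diet, 0 on CDAHFD and 0 for the interaction, as without it. Same-numbered libraries did not deviate together (0 of 30 pairs above r = 0.1, range -0.133 to 0.0812, and 6 of 20 libraries correlated best with their own number). Exact paired permutation (sign flips) of the ratios cannot go below p = 0.0625, and the smallest adjusted p obtained was 0.167. Col1a1 to Col1a2 (log2 difference 1.06 in WT and 1.45 in the libraries labelled TSP-1 null), Col3a1 to Col1a1 (-1.31) and Col6a1 to Col6a2 (-0.24) therefore could not pass there.

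The call of Col12a1 on control diet was lost with a pseudocount of 1, no filter, a filter of 1 FPKM (where it was not tested) and quantile normalization, which left 0 called genes, and the count was 0 to 1 when 1 library was left out, where without NDKO library 5 the 1 called gene was Col27a1. In WT, Col12a1 turned to -0.34 with quantile normalization. In WT and in the libraries labelled TSP-1 null, 25 and 24 collagen genes were higher without a filter (32.5% and 29.7% of all genes), 14 and 14 with a filter of 1 FPKM (43.0% and 41.1%), which left out Col12a1, Col4a6 and Col8a1, and 16 and 15 with a pseudocount of 1 (32.3% and 29.8%). Leaving out 1 library gave 16 to 18 called genes in WT, 17 to 18 in the libraries labelled TSP-1 null, and 0 on CDAHFD and for the interaction.

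Leaving out 1 library gave log2 differences of 0.98 to 1.20 for Col1a1 to Col1a2 in WT (not passing without NDWT library 2, 4 or 5 or any 1 HFWT library), -1.02 to -0.78 for Col3a1 to Col1a1 in WT (passing without NDKO library 3, by the adjustment), and -0.27 to -0.20 for Col6a1 to Col6a2 in the libraries labelled TSP-1 null (not passing without NDKO library 1, 2, 4 or 5), which was -0.14 with a pseudocount of 0.1. The Col3a1 to Col1a1 genotype difference on CDAHFD was -0.45 to -0.21 (passing without HFWT library 4) and that of Col4a1 to Col4a2 on control diet -0.18 to -0.12 (passing without NDKO library 3). Correlations ranged over 0.62 to 0.78 for Col1a1 and Col3a1, 0.90 to 0.96 for Col4a1 and Col4a2 and 0.35 to 0.67 for Col1a1 and Col4a1 on control diet, and 0.74 to 0.97 for Col1a1 and Col3a1 on CDAHFD, with a change of call without NDKO library 5, NDKO library 4, NDKO library 4, and HFWT library 1 or HFKO library 4. For Col1a1 to Col1a2 in WT and Col6a1 to Col6a2 in the libraries labelled TSP-1 null, the diets did not overlap with all libraries. They therefore did not overlap without any 1 of them either. Fewer libraries leave fewer arrangements for the exact permutation test, whose highest adjusted p was 0.0635 and 0.0508 for these ratios. The cause of the changes of call was not tested. Depth limits the 23 genes below the filter.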
